A study of Mus musculus with 12 samples.

Results

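Oxidative phosphorylation (OXPHOS) subunits encoded in the nucleus were followed through RNA libraries of mouse neutrophils. Genes were taken from the deposited table where it classes them as protein coding and their symbol names a subunit family: Nduf for complex I, Sdha to Sdhd for complex II, Uqcr for complex III, Cox4 to Cox8 for complex IV and Atp5 for complex V. The rule found 86 genes of 28987 in the table, and 77 of them reached 1 TPM in 3 or more of the 12 libraries and were tested, among 13456 genes that did so. TPM is the length-corrected share of a gene in the transcripts of its library. Of the 9 genes that did not pass, 4 (Cox7a1, Cox7b2, Cox8c and Atp5l-ps1) were listed at 0 in every library, and the others were Ndufs5, Cox4i2, Cox6b2, Cox8b and Ndufa4l2. By complex, 36 genes belong to complex I, 4 to complex II, 8 to complex III, 20 to complex IV (Ndufa4 and Ndufa4l2 among them) and 15 to complex V. The symbol rule also took 3 genes that are not known subunits: Atp5s (a coupling factor of ATP synthase), Atp5sl (an assembly factor, Dmac2 in newer naming) and Atp5l-ps1 (a processed pseudogene in GENCODE M21).

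Complexes I and II pass electrons from NADH and succinate to ubiquinone, complex III passes them on to cytochrome c, and complex IV hands them to oxygen. Complexes I, III and IV pump protons across the inner mitochondrial membrane, and complex V, the ATP synthase, uses the gradient to make ATP. Neutrophils draw most of their ATP from glycolysis, hold few mitochondria for their size and lose mitochondrial mass as they mature in the marrow, where their cycling precursors depend on respiration.

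Cells came from FVB mice that had received 2 mL of thioglycollate intraperitoneally, a sterile irritant that draws neutrophils into the peritoneum. The 4 groups were neutrophils of bone marrow (BM) and peritoneum (PT), each from wild-type (WT) and from transgenic MRP8-Bcl2 mice (MRP8/BCL2+ in the labels), with 3 libraries in every group. The transgene drives human Bcl-2 from the regulatory regions of human MRP8, a gene active in myeloid cells, so that neutrophils resist apoptosis. Cells of both sites were sorted by flow cytometry into Trizol, the cDNA was amplified, and all mice, WT included, had the irritant. The labels put collection at 6 h, which is not the time in the study's methods, and give macrophages as the source, where the design text gives neutrophils. No control mice without thioglycollate were analysed here.

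The libraries carry the numbers 4, 5 and 6 (BM WT), 10, 11 and 12 (PT WT), 1, 2 and 3 (BM Bcl2) and 7, 8 and 9 (PT Bcl2), and values below follow this order. The columns name a group but no mouse. Neutrophil markers (S100a8, S100a9 and 6 others) summed to 15172 to 349107 TPM in the 12 libraries, with S100a8 and S100a9 at 4495 TPM or more in each. Of the 6 others, Ly6g was at 588, 1058.5 and 1266 TPM in BM WT but at 13.1, 14.9 and 0 TPM in PT WT. In comparison, 11 macrophage markers in the table summed to 53.8 to 710 TPM. By the study's methods each mouse gave both marrow and peritoneal cells, but the labels do not say which libraries share a mouse, so BM and PT could not be paired and p-values measure the spread between libraries only. Library 9, labelled PT Bcl2, had 0.695 TPM of mouse Bcl2, within the range of the WT libraries (0.219 to 2.37 TPM) and below the 58.6 to 333 TPM of the other 5 MRP8-Bcl2 libraries. Total counts of calls that rest on PT Bcl2, and those by complex and by list, are therefore also given without it. Other counts that rest on PT Bcl2 are given with library 9 only. TPM keeps no read totals: from the spacing of low values, 1 read on a subunit gene of the median length (669 nt) was estimated to be worth 0.611 to 2.66 TPM in the WT libraries, and in MRP8-Bcl2 mice 1.61 to 2.86 TPM for BM and 1.19 to 1.92 TPM for PT. For 3 reads on such a gene in PT Bcl2 the estimate was 3.57 to 5.77 TPM, so levels under this are not told from 0.

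Promoter windows of 300 bases (250 before and 50 after the annotated start, RefSeq, GRCm38.p6) are shown for 4 genes, chosen after their values were seen, that frame the results. Uqcrc1 was lower in PT of both genotypes, Atp5k and Ndufs4 were listed at 0 in every PT Bcl2 library, and Ndufb2 had one of the few positive differences in both genotypes. Capitals mark exact matches, on either strand, to motifs bound by factors known to act on respiratory genes: GCGCATGC (NRF1), CCGGAAG (GABPA and other ETS factors), AAGATGGCG (YY1), CAAGGTCA (ERRA) and CACGTG (an E-box).
Uqcrc1 (chr9:108936398-108936697, plus strand): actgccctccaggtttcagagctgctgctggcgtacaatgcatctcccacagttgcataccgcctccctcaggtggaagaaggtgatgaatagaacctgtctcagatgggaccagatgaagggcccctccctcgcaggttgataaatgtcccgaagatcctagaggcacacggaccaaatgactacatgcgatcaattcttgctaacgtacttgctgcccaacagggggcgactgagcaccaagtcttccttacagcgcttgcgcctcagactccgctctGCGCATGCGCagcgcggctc
Atp5k (chr5:108434350-108434649, minus strand): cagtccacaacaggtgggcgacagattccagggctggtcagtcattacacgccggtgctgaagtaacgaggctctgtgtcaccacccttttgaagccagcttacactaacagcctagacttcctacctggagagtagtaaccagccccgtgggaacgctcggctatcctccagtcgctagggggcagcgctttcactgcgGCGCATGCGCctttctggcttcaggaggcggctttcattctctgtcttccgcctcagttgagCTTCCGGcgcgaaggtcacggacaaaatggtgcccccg
Ndufs4 (chr13:114388045-114388344, minus strand): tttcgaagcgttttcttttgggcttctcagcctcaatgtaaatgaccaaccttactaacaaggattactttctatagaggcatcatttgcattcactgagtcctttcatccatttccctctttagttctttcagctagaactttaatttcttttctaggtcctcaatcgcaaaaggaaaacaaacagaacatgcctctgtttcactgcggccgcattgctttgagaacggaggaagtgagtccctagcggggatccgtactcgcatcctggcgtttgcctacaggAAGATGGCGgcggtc
Ndufb2 (chr6:39592315-39592614, plus strand): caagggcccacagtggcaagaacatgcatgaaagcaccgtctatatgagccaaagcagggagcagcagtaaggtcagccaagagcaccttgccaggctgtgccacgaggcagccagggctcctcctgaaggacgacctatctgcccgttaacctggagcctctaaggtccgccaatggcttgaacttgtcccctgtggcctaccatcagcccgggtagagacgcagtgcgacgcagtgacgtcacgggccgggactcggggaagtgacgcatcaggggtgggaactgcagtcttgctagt
The first motif is nearly palindromic, so the single run of capitals in Uqcrc1 and the first run in Atp5k each hold it on both strands, overlapping. It begins 30 bases after the start in Uqcrc1 and 50 bases before it in Atp5k. Atp5k also holds the ETS motif, 12 bases after the start, and Ndufs4 holds the YY1 motif, 35 bases after it. The Ndufb2 window held none of the 5. Windows were used for 67 of the 86 genes, and the rest had none or lay on a chromosome that was left out. NRF1's motif stood in 10 of the 67 windows (14.9%), against 5.49% of the windows of 9139 tested genes and 2.8% of all 27025 windows used. For the ETS motif the counts were 15 (22.4%, against 18.3 and 9.12%), for YY1 6 (8.96%, against 3.25 and 1.49%), for ERRA 4 (5.97%, against 1.05 and 1.53%) and for the E-box 5 (7.46%, against 9.95 and 7.24%). Among the genes called lower in PT of MRP8-Bcl2 mice, described below, 4 of 38 windows held the NRF1 motif, against 6 of 24 among the genes not called there.

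Levels differed widely within and between complexes. The highest was Atp5b, the catalytic beta subunit of ATP synthase, with 1147, 959 and 459.7 TPM in the BM and 473, 599 and 791 TPM in the PT of WT mice, and 872, 1764 and 2311 TPM in the BM and 137, 339 and 420.4 TPM in the PT of MRP8-Bcl2 mice. It was the leading OXPHOS gene in 11 of 12 libraries and took 12.4 to 32.2% of the summed OXPHOS TPM in those. The second of complex V was Atp5e, the small epsilon subunit, with a mean of 114 TPM over the 12 libraries. In complex I the highest mean was that of Ndufb2, an accessory subunit of the membrane arm (129.8 TPM). Complex IV was led by the small membrane subunits Cox8a (104 TPM) and Cox6c (99.3 TPM), complex III by Uqcrh, the hinge protein (80.2 TPM), and Uqcr10 (48.6 TPM), and complex II by Sdha, the flavoprotein (46.8 TPM), and Sdhd, a membrane anchor (37.8 TPM). The median TPM of the tested genes was 21.2 in complex I, 27.0 in complex II, 35.5 in complex III, 51.0 in complex IV and 69.1 in complex V.

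**Figure D1:**
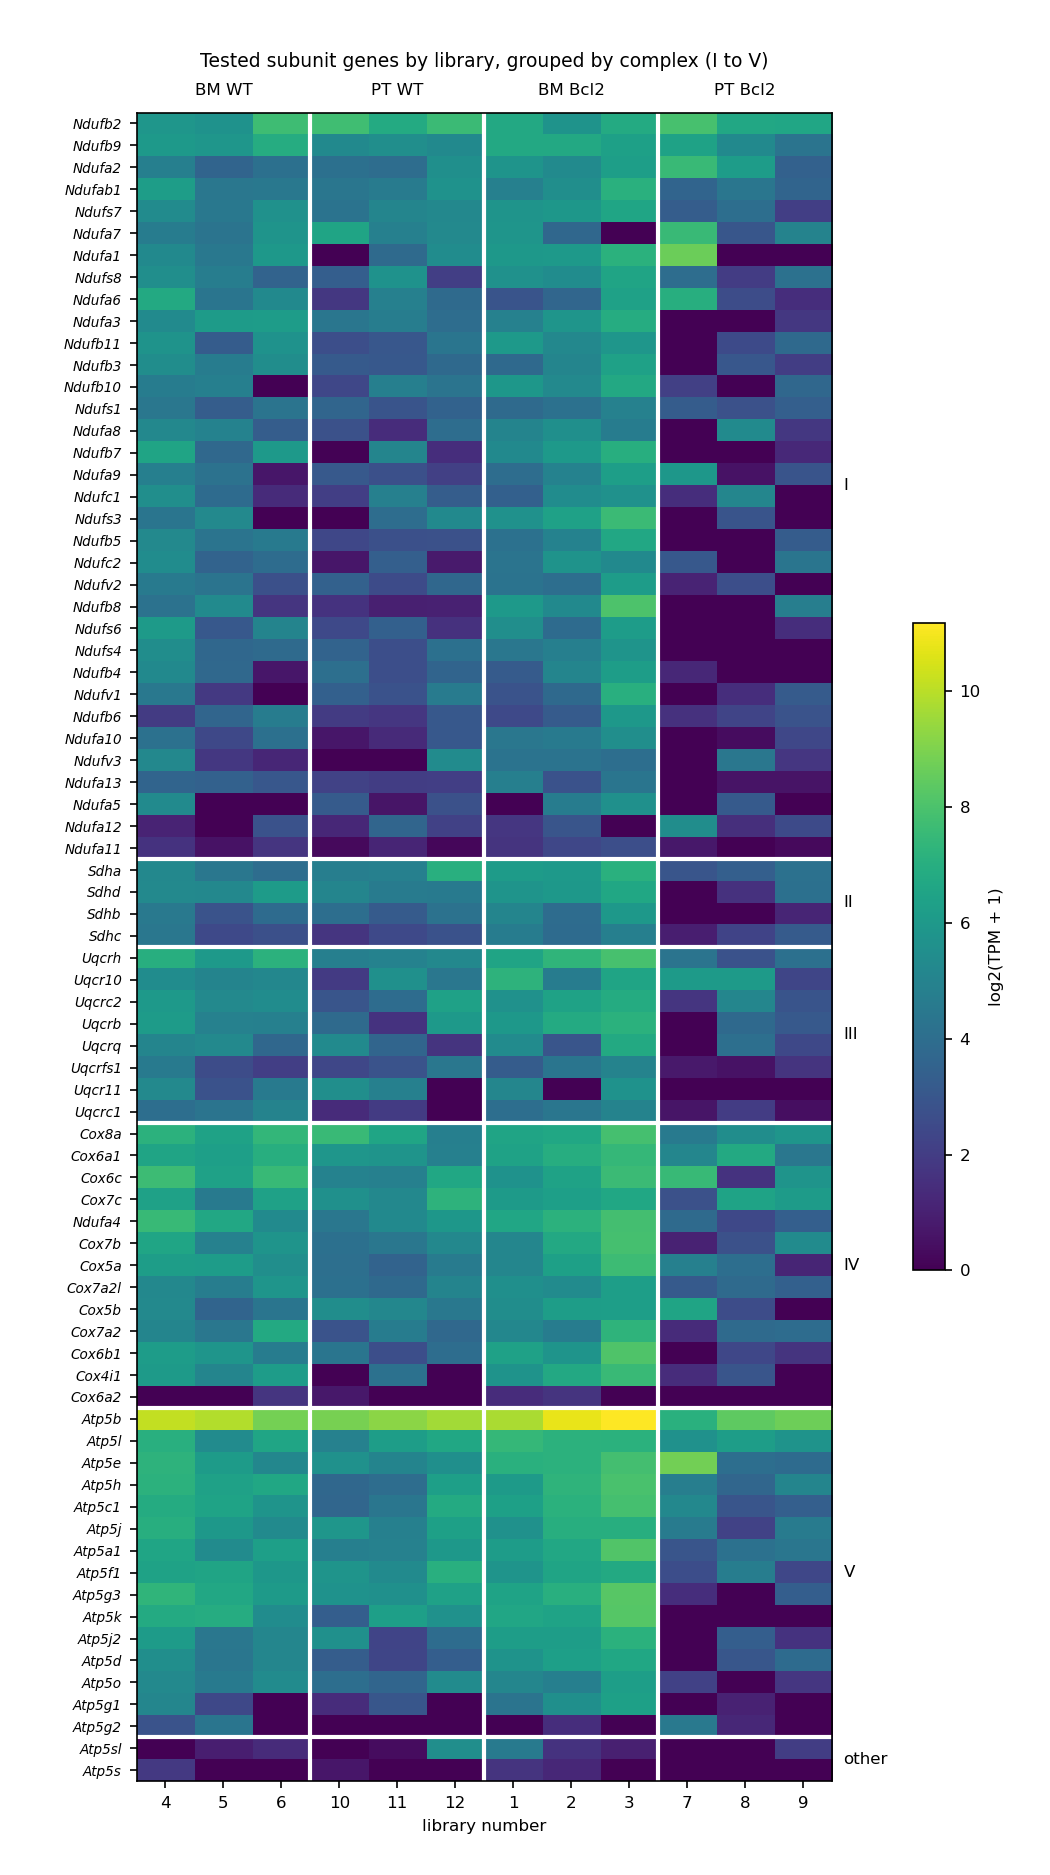
Heat map of log2(TPM + 1) for 76 of the 77 tested genes (rows, grouped by complex I to V and, as other, 2 genes that are not subunits) in the 12 libraries (columns, by group and library number). Library 3 (BM Bcl2) is the brightest column, and dark cells at 0 gather in the PT Bcl2 libraries, where 27, 20 and 14 of the 77 genes were listed at 0 (18.2 to 35.1%, against 17.6 to 32.4% of all tested genes).

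Where a subunit has alternative genes, 1 of them carried nearly all of the RNA except in the Cox7a and c-ring families. Cox4i1, Cox6a1, Cox6b1, Cox7b, Cox8a and Ndufa4, the widely expressed forms, held 97.3 to 100% of the summed TPM of their pairs or trios. The muscle form Cox7a1 and the testis forms Cox7b2 and Cox8c were listed at 0 throughout. Cox6b2, Cox8b and Ndufa4l2 were above 0 in 1 library each, at 8.04, 5.19 and 5.02 TPM. Cox6a2, the heart and muscle form, was above 0 in 4 libraries and reached 2.32 TPM. Cox4i2, the form induced by low oxygen in lung, was above 0 in 2 libraries, both PT WT, at 14.1 TPM in library 10 and 0.72 in library 11. In library 10 Cox4i1 was listed at 0, and over the PT WT libraries Cox4i1 held 53.2% of the pair. Cox7a2 and Cox7a2l, the latter a factor of respiratory supercomplexes, held 54.6 and 45.4% of their family. Of the 3 genes for the c ring of ATP synthase, which encode the same mature protein, Atp5g3 held 81.0%, Atp5g1 15.1% and Atp5g2 3.9%. In PT Bcl2 these shares were 30.9, 3.18 and 65.9%, and the last came mostly from library 7, with 21.7 TPM of Atp5g2.

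Summed over all 86 genes, OXPHOS RNA made up 0.367 to 0.606% of all TPM in the BM and 0.233 to 0.364% in the PT of WT mice, and 0.476 to 1.19% and 0.137 to 0.329% at the same sites of MRP8-Bcl2 mice. In WT mice the sums were 5515, 3374 and 3694 TPM for the BM and 2119, 2199.9 and 3346 TPM for the PT. Every PT library lay below every BM library of WT mice, with a narrow gap between library 12 (3346 TPM) and library 5 (3374 TPM). Genes with a long run of A or T took 8.93% of all TPM in library 6 and 54.2% in library 11. Whether the WT sums overlap depends on whether those genes are counted. In MRP8-Bcl2 mice the OXPHOS sums were 4480.5, 6069 and 10781 TPM in BM and 3114, 1383 and 1304 in PT, without overlap. Library 3 stood apart: it had the highest value of 51 of the 77 tested genes (66.2%), against 24.3% of all tested genes. Library 7 stood apart in another way. Its complex I sum was 1866 TPM, against 405 and 333 in libraries 8 and 9, while 27 of the 77 genes were at 0 (35.1%, against 32.4% of all tested genes).

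Complex II summed to 182, 153 and 325 TPM in BM against 7.56, 15.0 and 42.9 in PT of MRP8-Bcl2 mice, with a wide gap between the lowest BM and the highest PT library. In WT mice the complex II sums overlapped, with 116, 67.9 and 103 TPM in BM and 77.2, 65.2 and 177 in PT, where Sdha alone was at 130.4 TPM in library 12. Complex V sums were 1873, 3114 and 4675 TPM in BM and 762, 512 and 606 in PT of MRP8-Bcl2 mice. The 13 subunits encoded by the mitochondrial genome, which assemble with these proteins, summed to 20837, 8735 and 7827 TPM in the BM and 9883, 7249 and 13959 TPM in the PT of WT mice. In MRP8-Bcl2 mice they summed to 5405, 21588 and 30949 TPM in the BM and 4776, 2419.5 and 3589 TPM in the PT. These sums overlapped between BM and PT of WT mice but not of MRP8-Bcl2 mice. There the gap lay between 4776 TPM in library 7 and 5405 TPM in library 1. Genes with a long run of A or T took 18.8% of all TPM in library 1 and 65.6% in library 9. Whether the MRP8-Bcl2 sums overlap depends on whether those genes are counted.

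**Figure D2:**
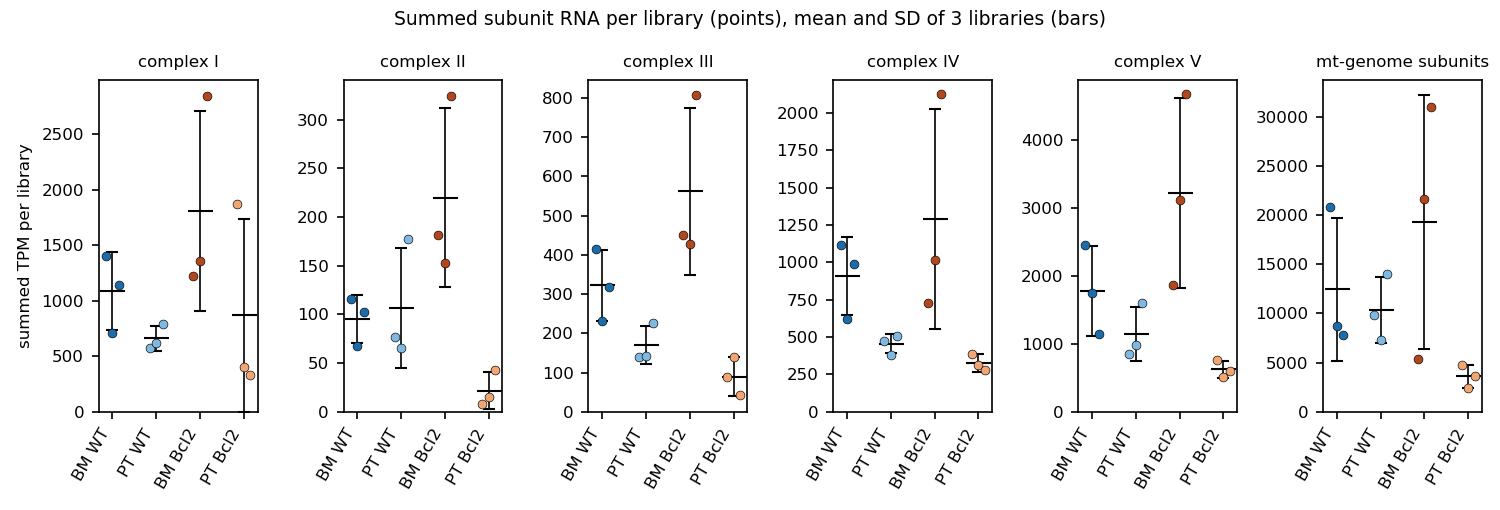
Summed TPM per library (points) of complexes I to V and of the 13 mitochondrial-genome subunits, with the mean and SD of 3 libraries (bars), in the 4 groups, each panel on its own scale from 0. PT Bcl2 is below BM Bcl2 in complexes II to V without overlap, and the PT Bcl2 sum of complex I reaches 1866 TPM in library 7.

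The first comparison asks how OXPHOS RNA differed between recruited and marrow neutrophils of WT mice. Most subunit genes were at lower levels in PT, but few differences exceeded the spread between libraries. Called means a Benjamini-Hochberg adjusted p under 0.05 in limma, over all 13456 genes, and at least 2-fold. Of 77 genes, 2 were called lower (2.6%, against 1.22% of all tested genes) and 0 higher (against 1.59%). On the log2(TPM + 1) scale, 63 differences were negative and 14 positive, with a median of -0.91 (quartiles -1.66 and -0.34), where 42.2% of all tested genes were negative and their median was 0.22. All 3 PT libraries lay below all 3 BM libraries for 17 of 77 genes (22.1%, against 7.97%) and above them for none (against 14.9%). At an unadjusted p under 0.05, 14 of the differences were negative and 0 positive, against 6.32 and 10.2% of all tested genes.

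Uqcrc1 (ENSMUSG00000025651, chromosome 9, 108936633-108949623, plus strand, GRCm38), a core protein of complex III, was at 15.4, 19.0 and 31.3 TPM in WT marrow and at 1.63, 2.87 and 0 TPM in the peritoneum. The groups did not overlap, and Uqcrc1 fell by 3.34 on the log2 scale (SE 0.75, limma adjusted p = 0.0294). Cox4i1 (ENSMUSG00000031818, chromosome 8, 120668222-120674207, plus strand), the widely expressed form of a regulatory subunit of complex IV, was at 68.1, 32.5 and 72.3 TPM and 0, 16.9 and 0 TPM at these sites. Only library 11 was above 0 in PT WT, and the difference was -4.40 (SE 1.06, limma adjusted p = 0.0367). When 1 library at a time was left out, Uqcrc1 lost its call in 5 of 12 fits and Cox4i1 in 6 of 12, with adjusted p up to 0.0981 (without library 12) and 0.151 (without library 10). Centring each library on its median gave 2 of 77 genes (against 1.46% of all). Both calls were lost with a pseudocount of 0.1 TPM, without genes holding runs of A or T and with only the groups compared, and that of Cox4i1 also without a filter and with genes of shared sequence summed.

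The next smallest p-values in WT belonged to genes that were not called. Uqcrh was at 129, 65.8 and 144 TPM in BM and 27.5, 30.2 and 36.1 in PT, without overlap, a difference of -1.75 (SE 0.59, limma adjusted p = 0.135). Atp5h, the peripheral stalk subunit d, was at 143, 82.5 and 101 and 12.2, 14.9 and 78.0 TPM, where the highest PT library came close to the lowest BM library. Ndufb5, a membrane arm subunit, was at 37.6, 18.7 and 23.4 and 4.17, 5.72 and 5.87 TPM, and Atp5d, the delta subunit, at 44.7, 19.97 and 33.6 and 8.76, 3.99 and 9.13. Atp5h, Ndufb5 and Atp5d did not overlap between the groups, and Cox6b1 did not either (71.3, 56.4 and 25.1 against 19.4, 5.47 and 15.2 TPM). Ndufc2, another membrane arm subunit, at 42.7, 10.9 and 14.6 TPM in BM and 0.599, 9.54 and 0.747 in PT, was also lower in every PT library. Ndufb7 and Ndufs6 overlapped: Ndufb7 ranged from 12.7 to 89.8 TPM in BM and from 0.0605 to 32.8 in PT, and Ndufs6, an accessory subunit needed late in complex I assembly, from 7.44 to 67.1 and from 2.03 to 9.85. Their limma adjusted p-values ran from 0.142 for Ndufb7 to 0.258 for Ndufb5.

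The same question was asked in MRP8-Bcl2 mice, whose neutrophils resist apoptosis. There, 44 of 77 genes were called lower in PT than in BM (57.1%, against 19.1% of all tested genes) and 0 higher (against 2.31%). The differences had a median of -3.01, with 73 negative and 4 positive, where 74% of all tested genes were negative and their median was -1.02. Leaving aside genes listed at 0 throughout a group, the median over 72 genes was -2.98. All PT libraries lay below all BM libraries for 48 genes (62.3%, against 32.6%) and above them for 0 (against 5.18%). In sorted bulk RNA, fewer mitochondria-rich cells in a sample and less OXPHOS RNA per cell cannot be told apart.

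How many were called depended on the scaling and on single libraries. Without library 9, 42 of 77 were called lower (54.5%, against 16.4% of all), 41 of the 44 among them, and Ndufa11, Uqcrc2 and Cox5a lost their calls. By complex these were 16 of 35, 4 of 4, 4 of 8, 6 of 13 and 12 of 15 in complexes I to V. Without library 3 (BM Bcl2) the count was 24 of 77 (against 8.17%). With each library centred on its median it was 16 of 77 (20.8%, against 3.47%), and after quantile normalization 29 of 77 (37.7%, against 5.79%). Centring moved the median of all genes from -1.02 to 0.57 and that of the OXPHOS genes from -3.01 to -1.42. Called lower under all 21 ways of processing, the reported one included, were 16 genes: Ndufa3, Ndufb5, Ndufb7, Ndufs4 and Ndufs6 of complex I, Sdhb and Sdhd of complex II, Uqcrh of complex III, Cox4i1, Cox6b1 and Ndufa4 of complex IV, and Atp5g1, Atp5g3, Atp5j2, Atp5k and Atp5o of complex V.

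**Figure D3:**
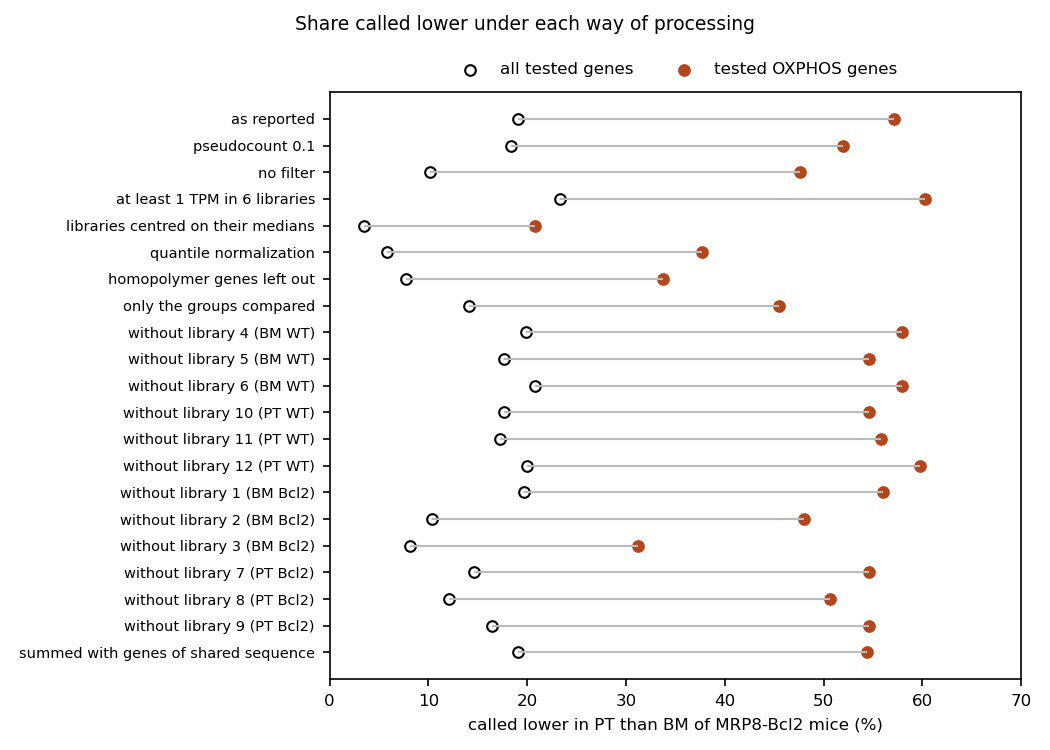
Share of the tested OXPHOS genes (filled points) and of all tested genes (open points) called lower in PT than in BM of MRP8-Bcl2 mice, in percent, as reported and under 20 alternatives. The filled point lies to the right of the open one in each row, and its lowest value is 20.8% (against 3.47%) with centred libraries, where it is 57.1% (against 19.1%) as reported.

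In complex I, 16 of 35 tested genes were called lower (45.7%), with a median of -2.94. Core subunits, which include those that carry the redox centres, gave 3 of 7 and accessory subunits 13 of 28. Ndufa3, a small accessory subunit, had the smallest p of the complex. It was at 29.0, 54.9 and 118 TPM in BM and 0, 0 and 2.50 in PT and fell by 5.27 on the log2 scale (SE 0.70, limma adjusted p = 0.000655). Ndufs4 (ENSMUSG00000021764, chromosome 13, 114287795-114388258, minus strand), an accessory subunit whose loss causes Leigh-like disease in mice, was at 20.8, 27.6 and 54.0 TPM in BM and listed at 0 in all 3 PT libraries (limma adjusted p = 0.000974). In WT mice Ndufs4 was at 44.1, 12.1 and 13.6 TPM in BM and 10.7, 5.50 and 16.3 in PT, and the groups overlapped. Ndufs3, a core subunit, was at 49.98, 82.1 and 192 TPM in BM and 0, 6.55 and 0 in PT (difference -5.58, SE 1.43, limma adjusted p = 0.0151), but 55.0% of its 31-mers, runs of 31 bases, occur in other genes, so its level is uncertain. The other way stood Ndufb2, at 106, 52.9 and 113 TPM in BM and 245, 104 and 98.3 in PT, a difference of 0.65 (SE 0.62) that did not pass the test.

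All 4 genes of complex II were called lower, with a median of -3.58. Sdhb, the iron-sulfur subunit (ENSMUSG00000009863, chromosome 4, 140961203-140979193, plus strand), was at 32.9, 14.5 and 61.8 TPM in BM and 0, 0 and 1.24 in PT and fell by 4.62 (SE 0.75, limma adjusted p = 0.00165). Sdhd fell by 4.22 (SE 0.83, limma adjusted p = 0.00439), from 54.1, 60.3 and 99.0 to 0, 1.98 and 16.3 TPM. Sdha, which holds the succinate site, went from 69.8, 64.2 and 137 to 6.67, 9.37 and 17.1 TPM (difference -2.93, SE 0.69, limma adjusted p = 0.0104), and Sdhc, the other membrane anchor, from 24.96, 14.2 and 27.2 to 0.888, 3.69 and 8.22 TPM (-2.36, SE 0.79, limma adjusted p = 0.0451). No PT library reached the lowest BM library for any of them. In WT mice none of the 4 was called, and the differences were 1.03 for Sdha, 0.06 for Sdhb, -0.89 for Sdhc and -0.76 for Sdhd.

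In complex III, 5 of 8 genes were called lower (62.5%). Uqcrh was at 90.6, 157 and 240.0 TPM in BM and 18.8, 6.07 and 16.4 in PT and fell by 3.50 (SE 0.59, limma adjusted p = 0.0021). Uqcrc1 was at 15.2, 19.6 and 30.7 and 0.569, 2.92 and 0.351 TPM, a difference of -3.44 (SE 0.75, limma adjusted p = 0.00719), close in size to the -3.34 in WT. The other 3 were Uqcrb, Uqcrc2 and Uqcrfs1, the Rieske protein, with differences of -4.33, -3.07 and -3.19. Of Uqcrb's 31-mers, 58.2% occur in other genes. Uqcr11 was listed at 0 in PT Bcl2 but also in library 2 of BM Bcl2 and library 12 of PT WT, and was not called (limma adjusted p = 0.0919). Uqcrq and Uqcr10 did not pass the test, the latter with 150.2, 25.1 and 89.9 TPM in BM and 66.8, 66.1 and 3.98 in PT.

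In complex IV, 7 of 13 tested genes were called lower (53.8%). Cox6b1, a subunit on the outer face of the enzyme, was at 84.2, 54.8 and 273 TPM in BM and 0, 4.18 and 2.19 in PT and fell by 5.42 (SE 0.80, limma adjusted p = 0.00118). Cox4i1 went from 51.8, 106 and 188 to 1.65, 6.75 and 0 TPM (difference -5.22, SE 1.06, limma adjusted p = 0.00506). Ndufa4, first purified with complex I and now counted with complex IV, went from 96.9, 142 and 226 to 13.8, 4.40 and 9.28 TPM (-3.97, SE 0.67, limma adjusted p = 0.00219). Cox5a, Cox7a2, Cox7a2l and Cox7b completed the 7. The 2 most abundant genes were not called: Cox8a was at 91.2, 100.4 and 232 TPM in BM and 22.5, 43.2 and 56.1 in PT, without overlap (limma adjusted p = 0.0812), and Cox6c at 51.1, 84.7 and 192 and 183, 2.10 and 53.5, with overlap.

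Complex V had 12 of 15 genes called lower (80%), 4 of 5 in the catalytic F1 part. Atp5b went from 872, 1764 and 2311 TPM in BM to 137, 339 and 420.4 in PT, a difference of -2.50 (SE 0.55, limma adjusted p = 0.00743) without overlap. Atp5g3 fell by 5.66 (SE 0.77, limma adjusted p = 0.000722), from 88.2, 132 and 305 to 1.76, 0 and 9.05 TPM. Atp5k (ENSMUSG00000050856, chromosome 5, 108433244-108434448, minus strand), the small subunit e that helps ATP synthase form dimers, was at 96.4, 89.3 and 299 TPM in BM and listed at 0 in all 3 PT libraries (limma adjusted p = 0.000192). In WT mice Atp5k was at 113, 119 and 42.6 TPM in BM and 9.16, 79.3 and 49.8 in PT. Its transcript is short, at 321 nt, so 1 read counts for more TPM than on longer genes. The level of 3.57 to 5.77 TPM for 3 reads in PT Bcl2, estimated for a gene of median length, is therefore too low for Atp5k. Its own level was not estimated. Atp5j2, subunit f, and Atp5o, the stalk subunit OSCP, had differences of -4.87 and -4.09 (limma adjusted p = 0.00377 and 0.00295), and 59.5% of Atp5o's 31-mers occur in other genes. The 3 not called were Atp5e, Atp5g2 and Atp5l. Atp5e was at 450.1, 15.4 and 14.2 TPM in PT, with its highest value of all libraries in library 7.

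**Figure D4:**
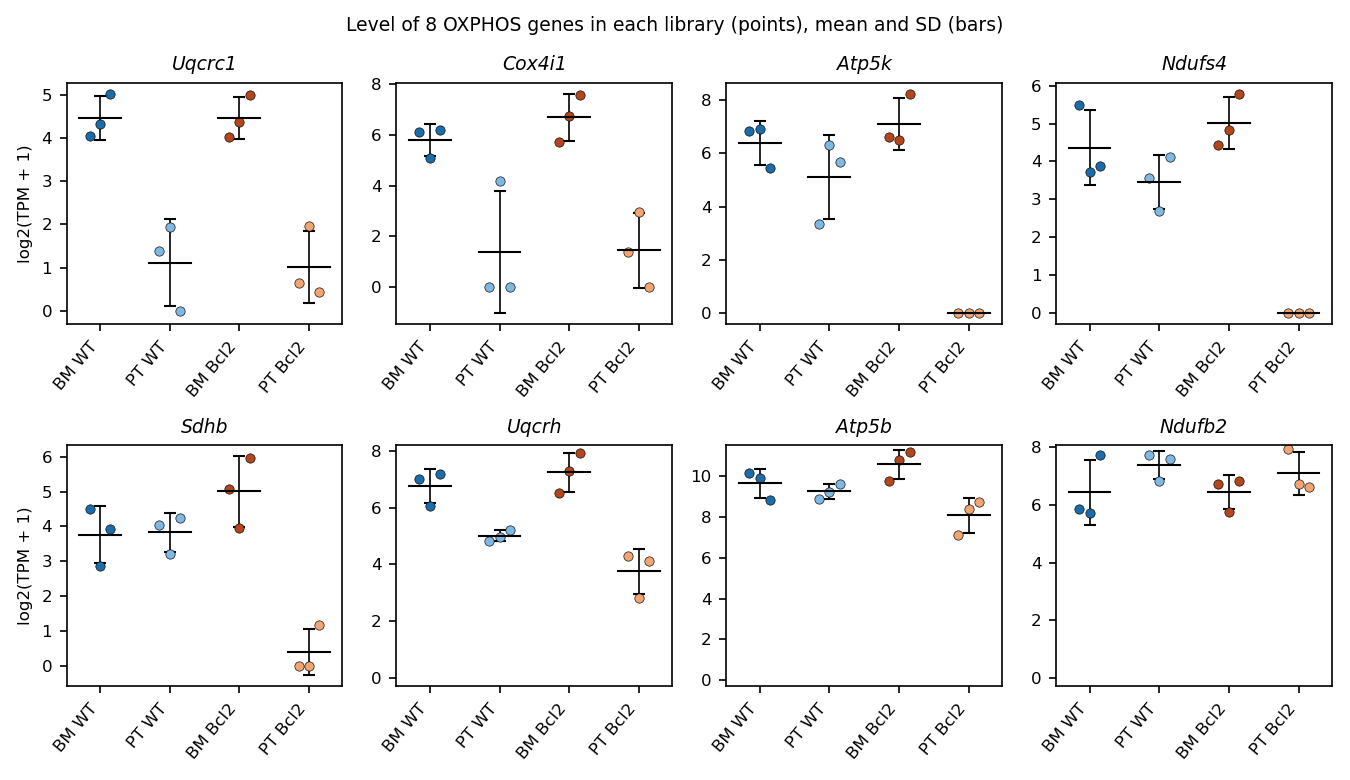
Level of 8 genes as log2(TPM + 1) in each library (points), with the mean and SD of 3 libraries (bars), in the 4 groups. Uqcrc1 and Cox4i1 are low in PT of both genotypes, Atp5k and Ndufs4 lie at 0 in PT Bcl2 and Ndufb2 stays between 51.4 and 245 TPM throughout.

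Throughout 1 group, 6 tested genes were listed at 0 while at 1 TPM or more in at least 3 other libraries. Besides Atp5k, Ndufs4 and Uqcr11 these were Cox6a2 and Atp5s in PT Bcl2, both at most 2.58 TPM anywhere, and Atp5g2 in PT WT. Atp5g2 was at 6.34, 19.1 and 0 TPM in WT marrow, 0, 1.79 and 0 TPM in MRP8-Bcl2 marrow and 21.7, 1.39 and 0 TPM in MRP8-Bcl2 peritoneum, and was not called in either genotype. Atp5sl, the assembly factor taken by its symbol, was at 44.3 TPM in library 12 and 23.4 in library 1 and at most 3.09 elsewhere.

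The 2 comparisons of PT with BM have no library in common, but the same fit of all 12 libraries gave each gene its SE in both. Calls in the 2 genotypes are therefore not independent. Differences were negative in both genotypes for 62 of 77 genes (80.5%, against 38.4% of all tested genes). All PT libraries lay below all BM libraries in both genotypes for 13 genes (16.9%, against 5.45%): Atp5d, Atp5h, Cox4i1, Cox5a, Cox6b1, Ndufa3, Ndufa13, Ndufb3, Ndufb5, Ndufb8, Sdhd, Uqcrc1 and Uqcrh. Uqcrc1 and Cox4i1 were called lower in both (2.6%, against 1.03%). Differences were positive in both for Ndufb2, Ndufa7 and Ndufa12, and none of the 3 passed the test in either. Ndufa12 reached 43.0 TPM in library 7 and lay between 0 and 11.4 TPM elsewhere.

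**Figure D5:**
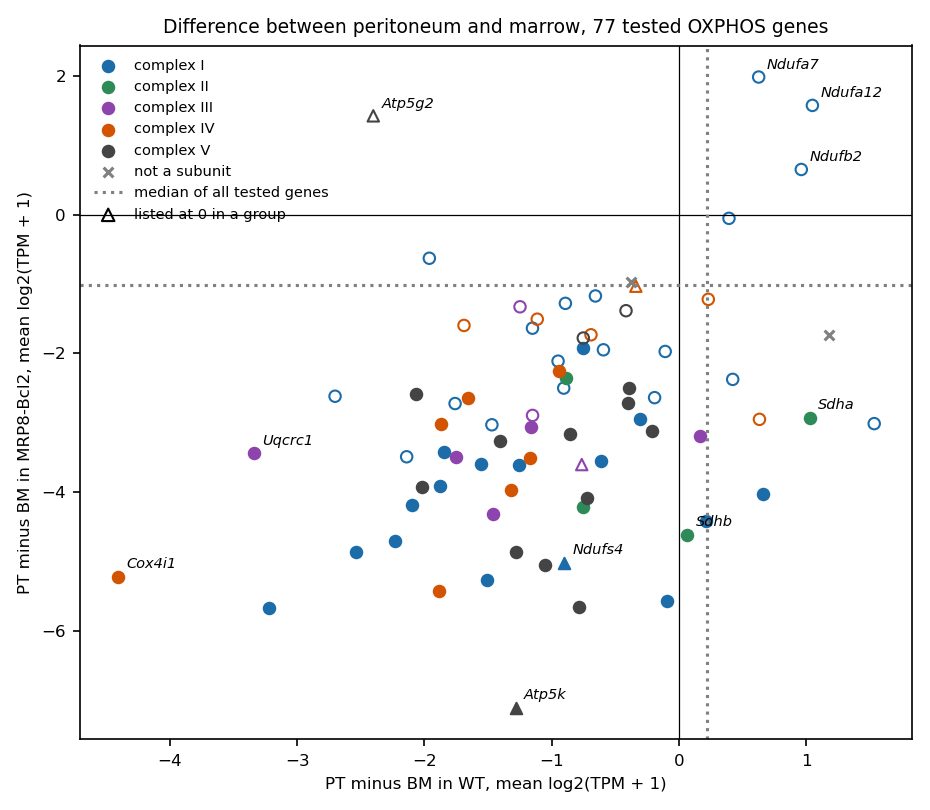
Difference of mean log2(TPM + 1) between PT and BM in WT (horizontal) and MRP8-Bcl2 mice (vertical) for the 77 tested genes, coloured by complex, filled where called lower in MRP8-Bcl2, with triangles for genes listed at 0 throughout a group, whose place depends on the 1 TPM added. Dotted lines are the medians of all tested genes, 0.22 and -1.02, and most points lie below and to the left of both, with medians of -0.91 and -3.01.

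The interaction, the PT minus BM difference in MRP8-Bcl2 less that in WT, was tested directly. It had a median of -1.91 over the 77 genes, where that of all tested genes was -1.18. No OXPHOS gene passed (0 of 77, against 0.0149% of all tested genes, limma), and the smallest adjusted p was 0.126, for Atp5k. At an unadjusted p under 0.05, 25 were more negative in MRP8-Bcl2 and 1, Atp5g2, more positive, against 16.6 and 0.364% of all tested genes. Without library 9, 0 of 77 passed and the smallest limma adjusted p was 0.0924. After Atp5k came Atp5g3 (-4.88, SE 1.09, limma adjusted p = 0.183) and Sdhb (-4.68, SE 1.05, limma adjusted p = 0.184). The larger number of calls in MRP8-Bcl2 mice is therefore not shown, gene by gene, to be a difference between genotypes.

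Within BM, OXPHOS genes were at somewhat higher levels in MRP8-Bcl2 than in WT mice, but no gene was called (0 of 77, against 0.0223%). Of the differences 69 were positive and 8 negative, with a median of 0.73, where 26.2% of all tested genes were negative and their median was 0.49. With each library centred the median was -0.011. All 3 BM Bcl2 libraries lay above all BM WT libraries for 11 genes (14.3%, against 10%). The smallest p-values were those of Sdha (36.6, 20.4 and 14.7 against 69.8, 64.2 and 137 TPM, difference 1.88, SE 0.69), Atp5g1 (2.90, SE 1.14) and Ndufs3 (19.3, 37.4 and 0 against 49.98, 82.1 and 192 TPM, 3.35, SE 1.43), each with a limma adjusted p of 0.673. Sdha and Ndufs3 did not overlap between the genotypes, while Atp5g1 did.

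Within PT, levels were lower in the libraries labelled Bcl2 for 66 of 77 genes, with a median of -1.15, where 79% of all tested genes were lower and their median was -0.67. With each library centred the median was -0.083. One gene was called (1.3%, against 0.0297%): Atp5k, at 9.16, 79.3 and 49.8 TPM in PT WT and 0 in PT Bcl2 (limma adjusted p = 0.0315), a call lost in 7 of 12 fits without 1 library. All PT Bcl2 libraries lay below all PT WT libraries for 21 genes (27.3%, against 18.8%). Atp5g3 was at 51.4, 47.7 and 83.9 TPM in PT WT and 1.76, 0 and 9.05 in PT Bcl2 (-4.31, SE 0.77, limma adjusted p = 0.0605), and Ndufa3 at 20.04, 25.8 and 15.1 and 0, 0 and 2.50 (-3.78, SE 0.70, limma adjusted p = 0.0757). Without library 9, 4 of 77 genes were called lower in PT Bcl2 (5.19%, against 0.113% of all tested genes): Atp5k, Atp5g3, Ndufa3 and Sdhd.

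Other mitochondrial genes were counted from lists by role. In WT mice none of them was called in either direction in PT against BM. In MRP8-Bcl2 mice none was called higher, and the shares called lower stand against 19.1% of all tested genes. There 9 of the 13 mitochondrial-genome subunits were called lower, led by mt-Atp8 (-3.24, SE 0.67, limma adjusted p = 0.0056), mt-Nd6 (-3.36) and mt-Co2 (-2.59). Of cytochrome c and cytochrome c1, the latter (Cyc1) was called lower, with a difference of -4.79. Enzymes of the citric acid cycle gave 8 of 13, led by Ogdh (-3.66), Dlst (-3.01) and Idh3a (-3.61). Assembly factors gave 7 of 36 (19.4%, a share near that of all tested genes), led by Coa6 (listed at 0 in PT Bcl2), Cox15 (-3.21) and Atpaf2 (-3.72), and carriers and porins 3 of 8 (Vdac3, Slc25a5 and Atpif1). Of 13 regulators of mitochondrial transcription and biogenesis, 3 were called lower (23.1%, also near it): Polrmt, the mitochondrial RNA polymerase (listed at 0 in PT Bcl2), Yy1 (-2.44) and Gabpa (-2.13). Without library 9, where 16.4% of all tested genes were called lower, these counts were 5 of 13 mitochondrial-genome subunits, 0 of the 2 cytochromes, 7 of 13 citric acid cycle enzymes, 7 of 36 assembly factors, 3 of 8 carriers and porins and 1 of 13 regulators.

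Markers of immature and of cycling cells moved in the same direction. Counts called lower below stand against 1.22% of all tested genes in WT and 19.1% in MRP8-Bcl2. Those called higher stand against 1.59 and 2.31%. Of 11 tested genes of immature neutrophils (Mpo, Elane, Camp and others), 8 were called lower in PT of WT and 10 in PT of MRP8-Bcl2 mice, and their sums ran from 23439 to 39914 TPM in BM against 347 to 639 TPM in PT of WT, and from 17128 to 45476 TPM against 584 to 1181 TPM in MRP8-Bcl2. Of 8 genes of cycling cells, 4 and 8 were called lower, with sums of 234 to 899 TPM against 60.4 to 109.6 TPM in WT, and 506 to 1642 TPM against 38.2 to 56.8 TPM in MRP8-Bcl2. Library 3, with the highest OXPHOS sum, also had the highest sum of cycling genes. Its sums of immature neutrophil genes (17128 TPM) and of neutrophil genes (76761 TPM) were the lowest of the BM libraries. Of 4 tested erythroid genes 1 and 3 were called lower, with sums of 43.5 to 116 TPM against 0 to 9.92 TPM in WT and 34.1 to 699.9 TPM against 0.549 to 8.18 TPM in MRP8-Bcl2, while of 8 macrophage genes none was called and of 7 B cell genes 1 (Ighm) was called higher in MRP8-Bcl2. Of 8 neutrophil genes, 3 were called lower in WT (S100a8, S100a9 and Ly6g). In MRP8-Bcl2, 2 were called lower (25%, near the share of all tested genes) and 1 higher (Csf3r). Sums of the 8 genes ran from 188889 to 349107 TPM against 15172 to 55301 TPM in WT, and from 76761 to 219019 TPM against 19256 to 70100.1 TPM in MRP8-Bcl2. Without library 9, 16.4% of all tested genes were called lower in MRP8-Bcl2. There 10 of 11 immature neutrophil genes, 8 of 8 cycling genes and 2 of 4 erythroid genes were called lower. So were 1 of 7 B cell genes (14.3%, near that share) and 0 of 8 neutrophil genes. The part of these cell types in the OXPHOS results was not tested.

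Genes with a long run of A or T in a transcript, none of them OXPHOS genes, took 8.93 to 65.6% of all TPM in a library, and library 9 had the highest share. Leaving them out gave 26 of 77 OXPHOS genes called lower in MRP8-Bcl2 mice (against 7.69% of all) and 0 of 77 in WT (against 0.807%). Among the 39 tested genes of at most 704 nt, 17 were called lower in MRP8-Bcl2 mice (against 18% of all genes that short), with medians of -1.28 in WT and -2.62 in MRP8-Bcl2, and among the 38 longer ones 27 were (against 19.4%), with medians of -0.74 and -3.14. Of the 86 genes, 30 share at least 10% of their 31-mers with another gene. Summed with those genes, 43 of 79 were called lower in MRP8-Bcl2 (against 19.1% of all tested genes). In WT 1 of 79 was (against 1.2%, a similar share).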

How the data were processed

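RNA was measured in 12 libraries of sorted mouse neutrophils, 3 per group. Per the study's methods, cDNA was amplified with the NuGen Ovation RNA-Seq System V2, libraries were made with NEBNext Ultra and sequenced in paired ends, and gene values came from AltAnalyze at default values. Its version and the genome build are not given in the sources used here. The authors deposited log2 values per gene, whose inverse less 1 sums like TPM, so they were read as log2(TPM + 1). Read totals are not in such values, and the depth behind them was estimated only from the spacing of low values of 5021 single-transcript genes. Columns with the authors' own fold changes and p-values were not used, nor were 2 columns of per-sample values with no matching sample. Columns were assigned to groups by name, and they give no mouse.

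The 13456 genes that reached 1 TPM in 3 or more libraries were fitted in limma 3.58.1 (R 4.3.3) on log2(TPM + 1) as 1 model of 4 group means with a mean-variance trend, which leaves 8 residual degrees of freedom. Differences are PT minus BM, or MRP8-Bcl2 minus WT. P-values are two-sided and Benjamini-Hochberg adjusted over all tested genes. A call needs an adjusted p under 0.05 and at least 2-fold, or for the interaction the adjusted p alone. Scripts were tested on simulated data. Coordinates and lengths are from GENCODE M21 (GRCm38) and promoter windows from RefSeq. Python 3.11.15 with pandas 2.3.3, numpy 2.4.6 and matplotlib 3.10.9 served for tables and plots. Alternatives were a pseudocount of 0.1 TPM, no filter, a filter of 1 TPM in 6 libraries, libraries centred on their medians, quantile normalization, 108 genes whose transcripts hold 31 or more A or T in a row left out, only the groups compared, each library left out and, added after seeing the data, genes of shared sequence summed.

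Named genes were the 2 highest of each complex, the 10 smallest p in PT against BM of each genotype, the 3 smallest p in each of the other comparisons, genes listed at 0 throughout a group, alternative isoforms and genes that are not subunits. Values of 1 gene that this rule names are not reported here, though it stays in the counts and sums. Other genes named, the promoters printed and the genes plotted were chosen after their values were seen. The members and lists were chosen with earlier results of these data known.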

Additional observations from a re-analysis of the deposited data

How the results depend on the processing

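The median difference stayed negative in PT against BM of both genotypes under all 20 alternatives, while counts of calls moved. In WT mice the 2 genes called lower became 0 with a pseudocount of 0.1 TPM, 1 without a filter, 0 without genes holding runs of A or T, 0 with only the groups compared and 1 with genes of shared sequence summed. The share of all tested genes called lower was 0.58 to 1.2% in these fits. Leaving out 1 library gave 0 to 3 calls in WT (against 0.379 to 1.63% of all tested genes) and medians of -1.20 to -0.70. Without genes holding runs of A or T the WT median of -0.91 became -0.47, and that of all tested genes went from 0.22 to 0.62. Negative differences then went from 63 to 55 of the 77 genes. In MRP8-Bcl2 mice the 44 genes called lower became 16 with centred libraries (against 3.47% of all tested genes) and 29 after quantile normalization (against 5.79%). Without genes holding runs of A or T they were 26 (against 7.69%). With 1 library left out, they ran from 24 (without library 3, against 8.17%) to 46 (without library 12, against 20%). The median of -3.01 became -3.75 with a pseudocount of 0.1 TPM, -1.42 with centred libraries, -2.10 after quantile normalization and -2.42 without genes holding runs of A or T, and -3.34 to -2.60 with 1 library left out. The interaction had 1 call with a pseudocount of 0.1 TPM in place of 0. Between genotypes, the BM median of 0.73 became -0.011 with centred libraries and 0.45 to 1.08 with 1 library left out. The PT count of 1 became 3 with a pseudocount of 0.1 TPM, 0 without a filter, 0 with centred libraries and 0 with only the groups compared. With 1 library left out it was 0 to 4 (4 without library 9, against 0.113% of all tested genes called lower). The PT median of -1.15 became -0.083 with centred libraries, -0.45 after quantile normalization and -1.34 to -0.75 with 1 library left out. Of all tested genes, 2.31% were called higher and 19.1% lower in PT of MRP8-Bcl2 mice as reported, 12.2 and 3.47% with centred libraries, and 5.04 and 5.79% after quantile normalization, while in WT mice these shares were 1.59 and 1.22%, 0.832 and 1.46%, and 1.73 and 1.96%. The cause of these shifts was not tested. No paired analysis was possible because, although each mouse gave cells of both sites by the study's methods, the columns carry no replicate number or mouse. Depth limits genes near the level of a few reads, where a value of 0 and a low level are not told apart.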
